A study of Mus musculus with 3 samples.

Results

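The comparison described here sets the library of lung macrophages collected 4 h into lipopolysaccharide (LPS) lung injury against the library collected at 0 h. It takes every gene of the authors' table for this pair, 12512 genes in 2 of the 3 libraries of the study. Both libraries came from C57BL/6 mice of the LysM-GFP line, aged 6 to 8 weeks, in which the lysozyme M locus drives a green fluorescent protein in macrophages, monocytes and neutrophils. Injury was induced with a nebulized LPS solution of 1 mg/ml, and because the labels repeat that treatment for all samples they do not say if the 0 h mice had inhaled it. The lungs were digested for 50 minutes at 37 degrees, and the cells sorted were positive for GFP, negative for Ly6g and positive for CD64, the high-affinity IgG receptor, and the column headings of the table also name CD11b. The number of mice per library is not given in the sources used here. Each time has 1 library, so no difference below has a replicate check, no p-value was computed, and "higher" and "lower" describe these libraries.

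LPS is a component of the outer membrane of Gram-negative bacteria. Macrophages detect it through CD14 and TLR4, whose adaptors switch on NF-kappaB, AP-1 and interferon regulatory factors, and the cells then secrete cytokines and lipid mediators, change their fuel use and call other leukocytes into the airspace. The healthy lung holds long-lived alveolar macrophages, which clear surfactant lipid, and injury brings in monocytes from blood, which turn on macrophage genes after they arrive. In a sorted bulk sample, fewer cells of a type and less RNA per cell cannot be told apart.

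Whole reads were recovered behind the deposited values, 24825976 at 0 h and 20377584 at 4 h, and 1 read was worth 0.865 normalized counts at 0 h and 1.16 at 4 h. Levels below are the authors' normalized counts (reads divided by a size factor), and a fold is the ratio of the 2 levels, each with a pseudocount of 1 added. The range in brackets is the 95% exact counting interval (Clopper-Pearson) of the plain ratio of the reads. It covers counting error only, since without molecular identifiers several reads can come from 1 molecule. Where a pair of levels is given, the 0 h level comes first. Levels are not divided by gene length and are compared between times, not between genes.

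The libraries also differed in sex-linked transcripts and in markers of several cell types. Xist, which silences the X chromosome in female cells, had 13705 reads at 0 h and 4 at 4 h, and the Y-linked gene Ddx3y had 4 reads at 0 h and 3994 at 4 h, so the libraries differ in the sex of their mice by these transcripts. Of 27 alveolar macrophage markers 23 were at least 2-fold lower and 0 higher at 4 h, and their summed level went from 976638 to 363451 normalized counts. Over all genes 14.6% were lower and 14.4% higher by that measure. Classical monocyte markers went the other way, 15 of 17 higher and 0 lower, with summed levels of 131595 and 591295. Of 14 neutrophil markers 13 were higher, with summed levels of 16637 and 53183, and Ly6g itself has no row in the table. Lyz2, the gene at the locus of the GFP insertion, had 43 reads at 0 h and 16 at 4 h, and its close copy Lyz1 had 20125 reads at 0 h and 19635 at 4 h. Genes of macrophages in general, Csf1r (27774 and 36442) and Emr1 for F4/80 (11109.8 and 10758), stayed within 2-fold. Of 18 interstitial macrophage markers 5 were higher and 6 lower, and of 14 dendritic cell markers 8 were higher and 2 lower. Of 18 lung epithelial markers 8 were higher (44.4%) and 3 lower (16.7%), with a median log2 ratio of 0.16. Their summed levels were 15044 and 16858, within which the club cell gene Scgb1a1 went from 83.9 to 3621 and Epcam from 883 to 144. Of 7 T, B and NK cell markers 5 were higher and 1 lower, with a median log2 ratio of 2.14. Their summed levels were 183 and 258, of which the lower member Cd4 held 126 and 34.7. Of 3 erythroid markers 2 were higher and 0 lower, Beta-s at 43.3 and 927 and Alas2 at 4.33 and 102. The erythroid sum was 495 and 1833. Some genes described below are themselves markers, Thbs1 and Vcan of classical monocytes and Maf and C1qa of interstitial macrophages. Others are Lcn2, Mmp8 and Il1r2 of neutrophils, and Cd2, Cd9, Cxcr1, F7, Marco, Mertk, Car4 and Atp6v0d2 of alveolar macrophages. The part of sex, of these cell types and of their mixture in the differences below was not tested, and with 1 library per time they cannot be told apart from the effect of time.

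At 4 h 1801 genes were at least 2-fold higher (14.4% of the table) and 1833 at least 2-fold lower (14.6%). The median log2 ratio over all genes was -0.02, with quartiles of -0.56 and 0.57. At 8-fold or more, 228 genes were higher (1.82%) and 217 lower (1.73%). Longer loci had higher ratios: the median log2 ratio was -0.20 in the fifth of genes with the shortest span and 0.23 in the fifth with the longest, where 20.1% of genes were at least 2-fold higher. The part of length in single results was not tested. Scaling the libraries to equal read totals lowered every log2 ratio by about 0.13, and centring on the genes at or above the 75th percentile of abundance lowered it by 0.17. These scalings moved the split of calls from 1801 higher and 1833 lower to 1533 and 2136, and to 1466 and 2222. Counts for a gene group that such a scaling moved by more than 1.5 times are given with the group.

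**Figure D1:**
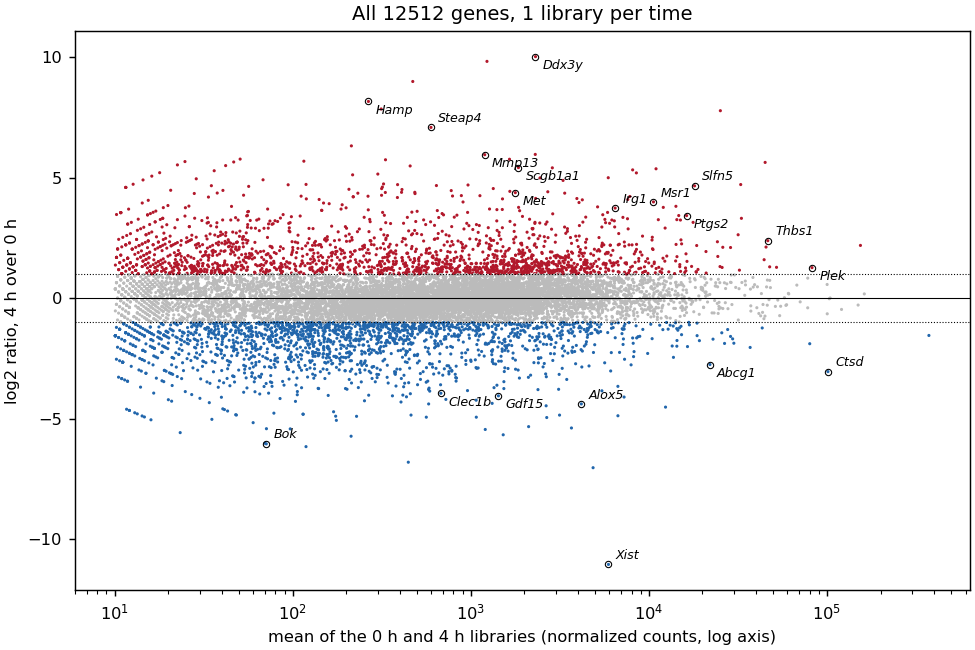
Every gene of the table, with the mean of its 2 normalized counts on a log axis against its log2 ratio of 4 h over 0 h. Red points are at least 2-fold higher and blue points at least 2-fold lower (dotted lines), each from 1 library per time, and the 1801 red and 1833 blue genes reach across the whole range of levels.

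The genes with the largest gain in normalized counts included secreted and cytoskeletal proteins. Il1b, the cytokine interleukin-1 beta, went from 55535 normalized counts at 0 h to 252923 at 4 h, and Plek, encoding the protein kinase C substrate pleckstrin, from 48442 to 116461. Thbs1, the adhesive glycoprotein thrombospondin 1, went from 14976 to 78107, and Slc7a2, an arginine transporter, from 17027 to 73970.3. Among those that lost the most were Tmsb4x, which binds monomeric actin, at 140185 and 101372, Ctss, the protease cathepsin S, at 122604 and 78198, and Axl, a receptor for apoptotic cells, at 47128 and 12904. Tmsb4x and Ctss lost many normalized counts while staying within 2-fold, and Axl was 3.65-fold lower (3.58 to 3.73). Actb, the cytoskeletal actin gene, stood at 103980.0 and 104472.

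Among the abundant genes with the widest ratios, several on the lower side belong to transport, adhesion and metabolism. Slco2b1 (chr7:99657803-99695809, mm10), an organic anion transporter, went from 5071 normalized counts at 0 h to 229 at 4 h, 22.1-fold lower (19.2 to 25.7). Tns1, encoding the adhesion protein tensin 1, went from 12422 to 984, and Dhrs3, an enzyme that reduces retinal, from 6310.3 to 609. B3gnt7, a glycosyltransferase that extends sulfated sugar chains, went from 4450.0 to 320.1.

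Receptors that detect microbial products were mostly higher at 4 h. Of 23 genes of Toll-like receptors and LPS sensing 10 were at least 2-fold higher and 0 lower, with a median log2 ratio of 0.81. Tlr1, the partner of TLR2 for bacterial lipopeptides, went from 215 normalized counts at 0 h to 1297 at 4 h, 5.996-fold higher (5.24 to 6.93). Tlr9, the receptor for unmethylated CpG DNA, was 4.24-fold higher (3.79 to 4.76) and Ly86, which encodes the MD-1 partner of RP105, was 3.23-fold higher (3.06 to 3.403). The LPS receptors themselves differed less: Cd14 went from 30432 to 73809.6, and Tlr4 stayed within 2-fold at 2082 and 2598.

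The cytosolic sensors, which start inflammasomes and interferon synthesis, lay higher as well. Of 20 genes 9 were higher and 0 lower (median 0.89). Nlrp12, which restrains NF-kappaB signalling, went from 3.46 normalized counts at 0 h to 133 at 4 h, 30.02-fold higher (14.6 to 143). Mefv, encoding pyrin, an inflammasome sensor, went from 1066 to 10262, 9.62-fold higher (9.07 to 10.2), and Casp4, the caspase that binds cytosolic LPS (caspase-11 in the mouse), went from 1119 to 6654, 5.94-fold higher (5.598 to 6.32).

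C-type lectin receptors, which bind sugars and dead-cell products, split evenly, with 7 of 18 higher and 7 lower. Clec4e, encoding Mincle, the receptor for mycobacterial glycolipid, went from 8829.9 normalized counts at 0 h to 54623 at 4 h, 6.19-fold higher (6.06 to 6.32). Clec10a and Clec4d, the galactose-binding lectin MGL1 and a partner of Mincle, were 4.61-fold higher (3.91 to 5.501) and 3.87-fold higher (3.699 to 4.05). In the other direction Clec1b, encoding CLEC-2, the podoplanin receptor, went from 1277 to 82.1, 15.4-fold lower (12.3 to 20.04), and Clec1a was 4.69-fold lower (3.36 to 6.9997). Among scavenger receptors Msr1, the class A receptor for modified lipoproteins, stood apart from the rest of its list at 1255 and 19973, 15.9-fold higher (15.1 to 16.8), while Marco and Cd36 stayed within 2-fold at 11259 and 13937 and at 9155 and 8766. Of 12 Fc receptors and signalling chains 1 was higher (8.33%, against 14.4% of all genes) and 2 lower (16.7%, near the 14.6% of all genes). The one higher was Fcgr1, at 2297 and 6589, but it encodes the CD64 used to sort the cells. Fcgrt, the neonatal Fc receptor that recycles IgG, went the other way, from 7388 to 1021, 7.23-fold lower (6.75 to 7.77).

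Paired receptors carry activating or inhibitory motifs, and they did not move as one. Of 31 members 8 were higher and 6 lower, and with either downward scaling 5 were higher. Treml2 went from 106 normalized counts at 0 h to 1704 at 4 h, 15.9-fold higher (13.3 to 19.4), and Lilrb4, an inhibitory receptor with many reads, from 10882 to 46638. Cd200r4, of the CD200 receptor family, was 4.58-fold lower (4.17 to 5.05), and Siglec1, the sialic acid receptor sialoadhesin, went from 12306 to 3917, 3.14-fold lower (3.03 to 3.26).

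Receptors for attractants and adhesion changed as well. Of 26 chemoattractant receptors 14 were higher and 5 lower, with a median log2 ratio of 1.43. Cysltr1, a receptor for cysteinyl leukotrienes, went from 119 normalized counts at 0 h to 1071 at 4 h, 8.97-fold higher (7.55 to 10.9). Lower were Cxcr1 (446 and 39.3), the lymphocyte-associated sphingosine phosphate receptor S1pr4 (252 and 92.5) and C5ar1, the receptor for complement C5a (8686 and 3652). Of 31 adhesion genes 11 were higher and 8 lower. Selp, encoding P-selectin, went from 10.4 to 213, while the tetraspanins Cd81 (3159.9 and 409, 7.71-fold lower, interval 6.92 to 8.64) and Cd9 (59658 and 14463, 4.12-fold lower, interval 4.05 to 4.205) were lower.

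Cytokine and growth factor receptors were more often higher, 16 of 47 against 5 lower (median 0.62). Met (chr6:17463956-17573980), the receptor of hepatocyte growth factor, went from 163 normalized counts at 0 h to 3396 at 4 h, 20.8-fold higher (18.01 to 24.3). Il18rap, the signalling chain of the interleukin-18 receptor, went from 25.96 to 504, 18.7-fold higher (13.4 to 29.1), and Il1r2, the decoy receptor for interleukin-1, from 149.7 to 1771, 11.8-fold higher (10.1 to 13.9). Receptors that transduce TGF-beta and clear dying cells were on the lower side: Tgfbr2 went from 12833 to 3506, 3.66-fold lower (3.52 to 3.81), and Mertk from 9776 to 1523, 6.41-fold lower (6.06 to 6.8001). Il1rl2, the receptor for interleukin-36, was 4.37-fold lower (3.68 to 5.27).

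Among 36 cytokines and interleukins 17 were higher and 4 lower. Tnfsf15, encoding TL1A, a T cell costimulator, went from 19.04 normalized counts at 0 h to 895 at 4 h, 44.7-fold higher (30.8 to 75.4). Il12a, encoding the p35 subunit of interleukin-12, had 2 reads at 0 h and 47 at 4 h, a level near the detection limit at 0 h. Tnfsf13, encoding the B cell survival factor APRIL, went the other way, 2.73-fold lower (1.98 to 3.93) from 144 to 52.01, as did Tnf, the early macrophage cytokine, at 27846 and 9479. Costimulatory ligands and checkpoint genes had 11 of 28 higher and 3 lower, or 5 lower with either downward scaling. Cd40, the receptor through which T cells license antigen-presenting cells, went from 329 to 2994, 9.08-fold higher (8.17 to 10.2), and Slamf9 from 2929 to 519, 5.64-fold lower (5.11 to 6.24).

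**Figure D2:**
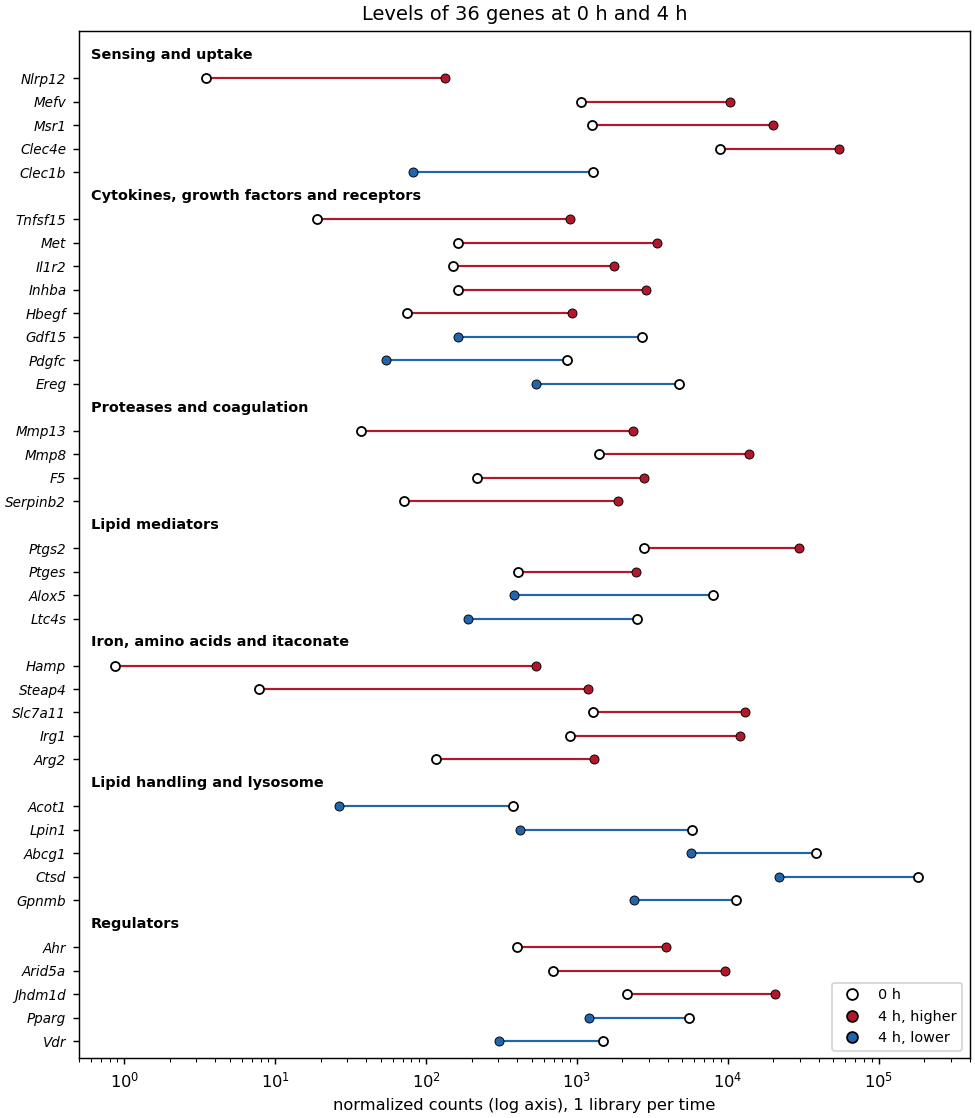
Levels of 36 genes in normalized counts on a log axis, with open points for the 0 h library and filled points for the 4 h library, joined by a line. Red marks genes higher at 4 h, such as Hamp at 0.865 and 531.6, and blue marks genes lower at 4 h, such as Alox5 at 7973 and 380.2.

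Growth and repair factors went mainly down, 11 of 28 lower against 3 higher (median -0.56). Gdf15, a stress-induced TGF-beta family member, went from 2698 normalized counts at 0 h to 162 at 4 h, 16.6-fold lower (14.1 to 19.9). Pdgfc, a platelet-derived growth factor, went from 862 to 54.3, 15.6-fold lower (11.8 to 21.7), and Ereg, the EGF receptor ligand epiregulin, from 4733 to 535, 8.83-fold lower (8.04 to 9.75). Another EGF receptor ligand moved in the opposite direction: Hbegf went from 75.3 to 925, 12.1-fold higher (9.83 to 15.5). Inhba (chr13:16011850-16031609), whose dimer is activin A, went from 164 to 2851, 17.3-fold higher (15.03 to 20.3).

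Genes of metalloproteinases, their inhibitors and matrix proteins, taken as 1 list, were more often higher, 16 of 40 against 5 lower. The widest of the list was the matrix gene Vcan, with a log2 ratio of 7.77. Vcan and Thbs1, also on the list, are classical monocyte markers, and the part of such cells was not tested. Mmp13, collagenase 3 (chr9:7272513-7283333), went from 37.2 normalized counts at 0 h to 2359 at 4 h, 61.8-fold higher (46.9 to 87.9), and Mmp8, the collagenase of neutrophil granules, from 1404 to 13774, 9.802-fold higher (9.31 to 10.3). The summed neutrophil markers, which include Mmp8, Lcn2 and Il1r2, were also higher at 4 h, and their part was not tested. Of the proteases' inhibitors, Timp2 went from 2477 to 631, 3.92-fold lower (3.58 to 4.31), while Timp1 went from 86.5 to 752, 8.61-fold higher (7.04 to 10.8). Tgm2, a transglutaminase that crosslinks matrix, went from 39421 to 16001.

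Genes of coagulation and fibrinolysis included wide moves in both directions, 11 of 27 higher and 5 lower. F3, tissue factor, the starter of clotting, went from 19.04 normalized counts at 0 h to 302 at 4 h, 15.1-fold higher (10.2 to 25.7), and Serpinb2, plasminogen activator inhibitor 2, from 70.95 to 1859.6, 25.9-fold higher (20.99 to 33.1). The cofactor gene F5, whose product joins the prothrombinase complex, went from 217 to 2789.9, 12.8-fold higher (11.3 to 14.7). F7, the partner of tissue factor, went from 11336 to 2996, 3.78-fold lower (3.63 to 3.95), so tissue factor and factor VII moved apart. Vwf, the platelet-binding factor listed among endothelial markers, was 5.93-fold lower (5.38 to 6.58) from 3050.0 to 513. It was the only member of that list at least 2-fold lower, with 2 of 16 higher, 14 above 0 and a median of 0.73.

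The enzymes of arachidonic acid metabolism went both ways. Cyclooxygenases and prostaglandin synthases turn arachidonic acid into prostaglandins, and 5-lipoxygenase opens the branch to leukotrienes. Of 24 genes 6 were higher and 9 lower. Ptgs2, the inducible cyclooxygenase (chr1:150100030-150108234), went from 2779 normalized counts at 0 h to 29813 at 4 h, 10.7-fold higher (10.3 to 11.1), and Ptges, which makes prostaglandin E2, from 408 to 2477, 6.05-fold higher (5.49 to 6.71). Pla2g7, which hydrolyses platelet-activating factor, was 5.02-fold higher (4.82 to 5.24). In the leukotriene branch Alox5, 5-lipoxygenase (chr6:116410070-116461178), went from 7973 to 380.2, 20.9-fold lower (18.8 to 23.5), and Ltc4s, leukotriene C4 synthase, from 2511 to 191, 13.1-fold lower (11.3 to 15.5). Neither branch moved as a whole. Alox5ap, the activating protein of 5-lipoxygenase, stayed within 2-fold at 12183 and 13729, and Ptgs1, the constitutive cyclooxygenase, was lower at 456 and 139. Tbxas1, thromboxane synthase, went from 5824 to 1198.

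Arginine, itaconate and tryptophan enzymes were higher in 6 of 20 cases and lower in 1, Glul, glutamine synthetase, at 13935 and 6581. Irg1 (now Acod1), which makes itaconate from a citric acid cycle intermediate, went from 902 normalized counts at 0 h to 12029 at 4 h, 13.3-fold higher (12.5 to 14.2). Arg2, the mitochondrial arginase, went from 117 to 1289.8, 10.96-fold higher (9.23 to 13.3).

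Iron and heme genes were more often higher than lower. Of 23 genes 9 were higher and 4 lower. Hamp (chr7:30942368-30944029), the peptide hormone hepcidin that closes the iron exporter ferroportin, had 1 read at 0 h and 460 at 4 h, which is 0.865 normalized counts at 0 h and 532 at 4 h, 286-fold higher (109.7 to 24321). Steap4, a ferric reductase, had 9 reads at 0 h and 1028 at 4 h, 135-fold higher (80.1 to 335), and Lcn2, which binds bacterial siderophores, went from 146 to 3169, 21.5-fold higher (18.5 to 25.5). Lower were Slc48a1, the heme exporter of the lysosome (4221 and 1115), Trf, transferrin (45101 and 13995), and Blvra, biliverdin reductase (4765 and 1619). The ferritin chains went separate ways, with the light chain Ftl1 at 60819.5 and 25817 and the heavy chain Fth1 at 152265 and 172023.

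Antioxidant genes were lower in 9 of 36 and higher in 5 (median -0.54). Slc7a11, the cystine importer that feeds glutathione synthesis, went from 1277 normalized counts at 0 h to 13027 at 4 h, 10.2-fold higher (9.66 to 10.8), and Sod2, the mitochondrial superoxide dismutase, from 4408 to 12342. Metallothionein Mt2 and glutathione transferase Gstm1 were lower, at 3349 and 1085 and at 3917 and 1309.

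Lipid genes were lower across several steps. Of 29 genes of fatty acid oxidation 16 were at least 2-fold lower, 0 were higher and 28 lay below 0, with a median log2 ratio of -1.02. Acot1, an acyl-CoA thioesterase, went from 377 normalized counts at 0 h to 26.6 at 4 h, 13.7-fold lower (9.34 to 22.6), and Acaa1b, a peroxisomal thiolase, from 1711 to 288, 5.93-fold lower (5.21 to 6.81). Of 35 genes of lipid uptake, binding and storage 18 were lower (median -1.03) and 3 higher, or 1 higher with either downward scaling. Lpin1, a phosphatidate phosphatase of triglyceride synthesis, went from 5808 to 422, 13.7-fold lower (12.4 to 15.3), and Plin1, a coat protein of lipid droplets, from 65.8 to 2.31 (2 reads), 20.2-fold lower (7.61 to 239). The members higher were the acyl-CoA synthetases Acsl3 (99.5 and 238) and Acsl1 (2469 and 5291) and the lipase Lipe (488 and 1070.2). Acsl1 and Lipe were below 2-fold with either downward scaling.

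Genes of cholesterol export went both ways. The list joined targets of the oxysterol receptor LXR with other genes of cholesterol handling. Of its 20 genes 6 were lower and 4 higher, or 2 higher with either downward scaling. Abcg1, an exporter of cholesterol to HDL (chr17:31057693-31117981), went from 38366 normalized counts at 0 h to 5692 at 4 h, 6.74-fold lower (6.54 to 6.94), and Nceh1, which hydrolyses stored cholesteryl ester, from 13861 to 2036, 6.804-fold lower (6.48 to 7.15). Ch25h, which makes 25-hydroxycholesterol, was on the higher side at 2539.5 and 9215, 3.63-fold higher (3.48 to 3.79).

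The central carbon pathways moved less. Of 27 citric acid cycle genes 23 lay below 0 (median -0.53), and 3 were at least 2-fold lower, Mdh1 (4549.5 and 1988), Idh2 (1826 and 808) and Pcx (88.3 and 41.6). Of 40 complex I genes 38 lay below 0, with 1 at least 2-fold lower (Ndufaf2, 190.4 and 76.3), or 3 and 4 with the downward scalings. Glycolysis genes had 5 of 29 higher (17.2%) and 4 lower (13.8%), near the 14.4% and 14.6% of all genes. The glucose transporters Slc2a3 (43.3 and 225) and Slc2a1 (1171 normalized counts at 0 h and 4431 at 4 h, 3.78-fold higher, interval 3.56 to 4.03) and the oxygen-sensing factor Hif1a (2459.9 and 9153, 3.72-fold higher, interval 3.56 to 3.89) were higher, and the aldolases Aldoc (1516 and 139, 10.9-fold lower, interval 9.08 to 13.3) and Aldoa (20249 and 8441) and the kinase Pdk1 (1029.7 and 277) lower.

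**Figure D3:**
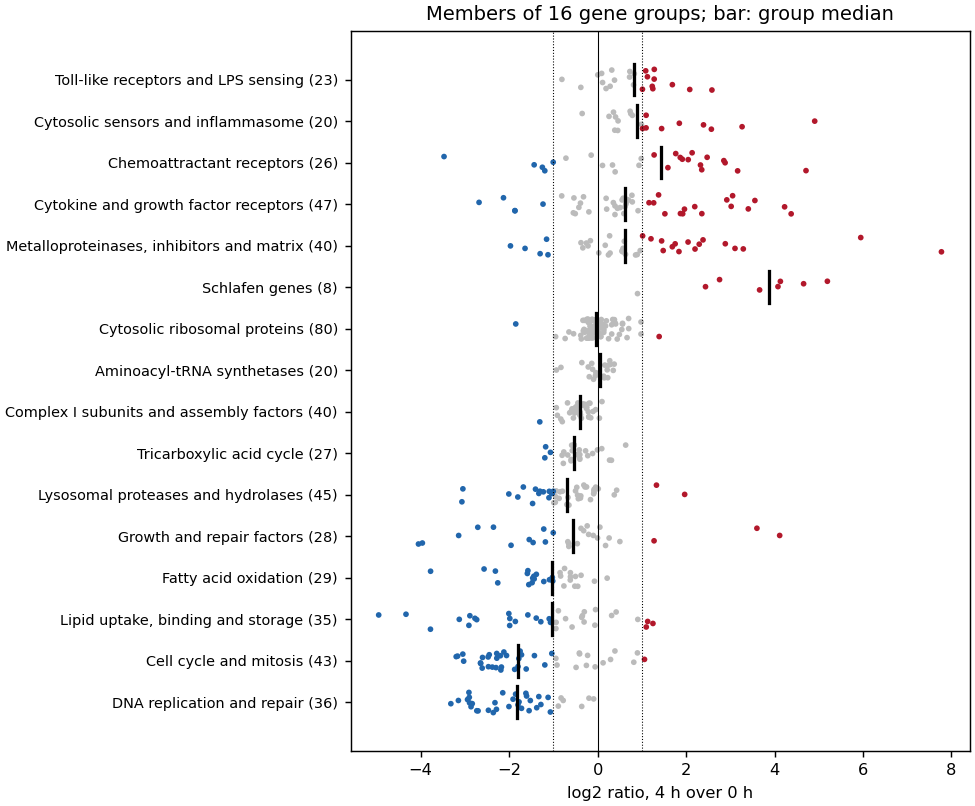
Log2 ratios of 4 h over 0 h for the members of 16 gene groups, 1 point per gene, with the number of genes measured after each name and a bar at the group median. Red and blue points are past 2-fold (dotted lines), and medians run from 3.87 in the Schlafen genes to -1.83 in DNA replication and repair.

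Lysosomal genes were broadly lower. Of 45 proteases and hydrolases 40 lay below 0, 15 were at least 2-fold lower and 2 higher (median -0.70). Ctsd, the aspartic protease cathepsin D (chr7:142375915-142387870), lost the most normalized counts of this list, with 180762 normalized counts at 0 h and 21869.9 at 4 h, 8.26-fold lower (8.14 to 8.39). Ctsf, a cysteine cathepsin, was 8.39-fold lower (6.63 to 11.02) from 677 to 79.7. The exceptions were Ctse, cathepsin E (90.9 and 358), and Sgsh, a heparan sulfatase (178 and 449.6). Of 31 membrane and proton pump genes 27 lay below 0 and 1, Lamp2, was at least 2-fold higher, or 0 with either downward scaling. At least 2-fold lower were 5 (16.1%, near the 14.6% of all genes), or 8 and 10 with the downward scalings. They included Gpnmb, a glycoprotein of phagosomes, at 11318 and 2378, 4.76-fold lower (4.54 to 4.99), and Atp6v0d2, a pump subunit, at 22955 and 5768, 3.98-fold lower (3.86 to 4.103). The lysosomal and lipid lists are strongly transcribed in alveolar macrophages, whose markers were lower in the same library, and that share was not tested.

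Genes for engulfing apoptotic cells were lower in 7 of 24 and higher in 2, Thbs1 and the integrin chain Itgav (1654 and 4355). The bridging ligand Gas6 was 4.098-fold lower (2.67 to 6.98) from 107 to 25.4. In the complement list 5 of 20 were higher and 4 lower. C1qa, a chain of the initiator C1q, went from 2022 normalized counts at 0 h to 717 at 4 h, 2.82-fold lower (2.58 to 3.09). Of 18 class II genes 3 were lower (16.7%, near the 14.6% of all genes), among them the peptide exchanger H2-DMa (6496 and 2511), and March1, the ligase that removes class II from the surface, was 2.72-fold higher (2.59 to 2.86) from 2043 to 5565.

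Transcription factors were past 2-fold about as often as genes of the whole table. Of 57 entries in that list, which also held the enzyme Car4 (19551 and 30512), 11 were higher (19.3%, against 14.4% of all genes) and 8 lower (against 14.6%). Ahr, the aryl hydrocarbon receptor, went from 401 normalized counts at 0 h to 3879 at 4 h, 9.66-fold higher (8.78 to 10.7). Maf, which governs macrophage differentiation, was higher at 134 and 863, 6.397-fold higher (5.41 to 7.703). Vdr, the vitamin D receptor, went from 1478 to 304, 4.85-fold lower (4.27 to 5.56), Tcf7l2, a Wnt effector, from 2867 to 591, and Cebpa, a myeloid lineage factor, from 6309 to 1359, 4.64-fold lower (4.36 to 4.94). The lineage factors Sfpi1, encoding PU.1, and Cebpb stayed within 2-fold at 9257 and 9569 and at 11239 and 12164.

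Immediate-early genes, which cells switch on within minutes of a stimulus, had 5 of 34 higher and 5 lower, or 3 higher with either downward scaling. These shares (14.7% each way) are those of the table as a whole (14.4% and 14.6%). Ier3, a survival gene, went from 2684 normalized counts at 0 h to 11947 at 4 h, 4.45-fold higher (4.28 to 4.63), and Dusp2, a phosphatase of MAP kinases, from 3465 to 9912. Fosb went the other way, from 35067 to 10789.9, 3.25-fold lower (3.18 to 3.32), as did Myc (864 and 260.0) and Egr3 (177 and 54.3). NF-kappaB regulators had 14 of 35 higher, or 9 with either downward scaling, among them Zc3h12c, an RNase of cytokine transcripts, at 448 and 3057, 6.81-fold higher (6.21 to 7.51).

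Chromatin modifiers were higher in 10 of 47 and lower in 2, the DNA methyltransferases Dnmt3a (3480.1 and 1523) and Dnmt1 (2873 and 1321). Arid5a, which stabilizes interleukin-6 transcripts, went from 697 normalized counts at 0 h to 9613 at 4 h, 13.8-fold higher (12.8 to 14.9). Jhdm1d (now Kdm7a), a histone demethylase, went from 2144 to 20464, 9.54-fold higher (9.15 to 9.96), and the DNA-demethylating enzyme Tet2, from 1947 to 7946, 4.08-fold higher (3.89 to 4.28).

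Genes of DNA replication and mitosis were lower together. Of 36 genes of DNA replication and repair all 36 lay below 0 and 30 were at least 2-fold lower (median -1.83). Gins2, a subunit of the replicative helicase, went from 239.7 normalized counts at 0 h to 23.1 at 4 h, 9.98-fold lower (6.58 to 17.2), and Pole, a replicative polymerase, from 408 to 45.1, 8.87-fold lower (6.52 to 12.9). Of 43 cell cycle genes 29 were lower (median -1.80) and 1 higher, the factor E2f2 (1262 and 2630.4), which was below 2-fold with either downward scaling. Ccnb2, a mitotic cyclin, went from 667 to 79.7, 8.27-fold lower (6.53 to 10.9). Of 30 kinesins 14 were lower, led by the mitotic motors Kif18b (120.3 and 11.6) and Kif2c (277 and 34.7), and the cargo motor Kif5b was 2.404-fold higher (2.296 to 2.52). Histone genes did not share one direction. Of 18 7 were at least 2-fold lower, 8 lay above 0, and their summed level went from 23003 to 30598 normalized counts. The median of -0.63 turned to 0.32 among the 12 whose mean was 100 normalized counts or more. Lower were Hist1h2bc (825 and 71.7, 11.4-fold lower, interval 8.896 to 15.1) and the linker histone Hist1h1c (1452 and 205), with H2afy2 the third widest (38.1 and 8.09).

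Some large gene sets scarcely moved, which gives a scale for the others. Of 80 cytosolic ribosomal proteins 1 was past 2-fold upward, Rps29 (9.52 and 26.6), and 1 downward, Rpl3l (165 and 45.1), with a median of -0.03, and other scalings gave at most 3 upward and 2 downward. None of 20 aminoacyl-tRNA synthetases was past 2-fold in either direction, although 1 was lower with either downward scaling. Of 47 proteasome subunits Psme4 (1852 and 5212) was higher and Psma8 (82.2 and 32.4) lower.

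Among gene families the Schlafen genes, interferon-inducible regulators of growth and of viral translation, had 7 of 8 higher and a median of 3.87. Slfn4 went from 452 normalized counts at 0 h to 16572 at 4 h, 36.6-fold higher (33.6 to 40.1), and Slfn5 from 1377 to 34750.5, 25.2-fold higher (24.001 to 26.6). Of 8 MS4A genes 6 were higher, led by Ms4a4b (24.2 and 614, 24.4-fold higher, interval 17.3 to 38.5). Members of both families are close copies, and how reads shared between copies were counted is not given in the sources used here.

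Solute carriers, 210 of them, were higher in 34 cases (16.2%) and lower in 32 (15.2%), near the 14.4% and 14.6% of all genes. Slc26a4, the anion exchanger pendrin, went from 4.33 normalized counts at 0 h to 423 at 4 h, 79.6-fold higher (41.5 to 303), and Slc1a2, a glutamate transporter, from 12.1 to 227, 17.4-fold higher (10.9 to 34.8). Slc9a2, a sodium-proton exchanger, went from 824 to 47.4, 17.05-fold lower (12.7 to 24.4). Pendrin is known from secretory epithelium, and the club cell gene Scgb1a1 was also higher in the 4 h library, and the part of such cells was not tested. The serotonin transporter Slc6a4 went from 2398 to 359, 6.65-fold lower (5.93 to 7.52). Of 21 potassium channel genes 5 were higher and 6 lower. The inward rectifier Kcnj2 went from 526 normalized counts at 0 h to 3051 at 4 h, 5.79-fold higher (5.31 to 6.34), and the calcium-gated channel Kcnn3 from 5643 to 629.9, 8.95-fold lower (8.21 to 9.795), with Kcnk5, a background channel, also lower at 936 and 106. In adenosine signalling Nt5e, encoding CD73, which makes adenosine from AMP, went from 705 to 55.5, 12.5-fold lower (9.497 to 17.4). The receptors P2ry1, for ADP, and Adora2b, for adenosine, were 12.9-fold higher (9.19 to 20.2) and 6.62-fold higher (5.901 to 7.49). Of 14 phosphodiesterases, which break down cyclic nucleotides, 6 were higher and 3 lower, with a median of 0.32 that turned to -0.34 among the 11 whose mean was 100 normalized counts or more. The most abundant, Pde4b, went from 9959.9 to 24802 and Pde7b from 67.5 to 599, while Pde4d went from 642 to 141 and Pde3b from 1588 to 542. In the cytoskeleton list Marcks, an actin-binding substrate of protein kinase C, went from 1470.1 normalized counts at 0 h to 11389 at 4 h, 7.74-fold higher (7.36 to 8.16), and Lmna, encoding nuclear lamins A and C, from 12460.5 to 2149.7, 5.79-fold lower (5.52 to 6.09).

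Cell death genes went both ways, more of them upward. Of 33 genes of the BCL2 family and cell death 9 were higher and 3 lower. The widest was Birc5, survivin, which also serves in mitosis, 8.98-fold lower (6.86 to 12.3) from 548 to 60.1. Birc3, an inhibitor of apoptosis, went from 2539 normalized counts at 0 h to 10022 at 4 h, 3.95-fold higher (3.79 to 4.12), the death receptor Fas from 576 to 2239.8, and Pmaip1, the BH3-only killer Noxa, from 2501 to 9330.2. The survival gene Bcl2l1, encoding BCL-XL, was lower at 1104 and 483, so genes for and against cell death stood on both sides. Of 31 chaperones 5 were higher (16.1%, near the 14.4% of all genes), or 3 with either downward scaling, among them Dnaja1 (589 and 2075) and Hspa1a (864 and 2238). Of 31 genes of the unfolded protein and integrated stress responses 3 were higher (9.68%, below that share), the amino acid enzyme Asns (129 and 563), the sensor Atf6 (3066 and 8263) and the kinase Eif2ak2 (1082 and 6179.7).

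Kinase and phosphatase families had more members past 2-fold in one direction than the table as a whole. Of 37 MAP kinase genes 8 were higher (21.6%, against 14.4% of all genes) and 2 lower. Map3k6, an upstream kinase, went from 54.5 normalized counts at 0 h to 599.8 at 4 h, 10.8-fold higher (8.46 to 14.5), and Mapk13, encoding p38 delta, from 15.6 to 77.4, while Mapk3, encoding ERK1, went from 9808 to 3142, 3.12-fold lower (2.99 to 3.26). Of 29 protein tyrosine phosphatases 9 were higher (31.0%) and 2 lower, among them Ptpn22, which restrains antigen receptor signalling, at 333 and 1813, 5.43-fold higher (4.87 to 6.101). Of 20 dual-specificity phosphatases 5 were lower (25%, against 14.6% of all genes) and 2 higher, with Dusp9 at 124 and 6.93 and Dusp5 at 2486 and 933. Their median log2 ratio of -0.22 turned to 0.10 among the 13 whose mean was 100 normalized counts or more.

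Orphan and other G protein-coupled receptors were higher in 13 of 41 and lower in 8. Gpr84, a receptor for medium-chain fatty acids, went from 197 normalized counts at 0 h to 1106 at 4 h, 5.58-fold higher (4.85 to 6.51), and Gpr183, the receptor for the oxysterol that Ch25h leads to, from 75.3 to 550.1, 7.23-fold higher (5.804 to 9.29). Gpr55, a lysophospholipid receptor, went from 811 to 155, 5.21-fold lower (4.36 to 6.32), and the adhesion receptor Gpr56 from 535 to 58.9, 8.94-fold lower (6.81 to 12.3). Adcy3, an enzyme that makes cyclic AMP, went from 4476 to 619, 7.22-fold lower (6.61 to 7.91).

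Among guidance genes Plxnc1, a semaphorin receptor, went from 2596 normalized counts at 0 h to 677 at 4 h, 3.83-fold lower (3.51 to 4.19), and its ligand gene Sema7a from 40.7 to 173, 4.18-fold higher (3.05 to 6.05), so receptor and ligand moved apart. The Wnt receptor Fzd4 went from 658 to 177. In the clock and glucocorticoid list Sgk1, a kinase induced by steroid hormones, went from 41845 to 11387, 3.67-fold lower (3.596 to 3.76), and the clock repressors Per2 and Nr1d1 stood at 375 and 138 and at 148 and 55.5. Clock itself went from 1081 to 2253, a ratio below 2-fold with either downward scaling.

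In the tripartite motif family, ubiquitin ligases of innate immunity, 11 of 41 were higher and 6 lower. The neighbouring copies Trim30a (1839 and 13465, 7.32-fold higher, interval 6.99 to 7.67), Trim30b (118 and 1204) and Trim30d (688 and 4999) were higher, and Trim47 was 7.37-fold lower (6.12 to 9.06) from 994 to 134. Rab GTPases, which direct vesicles, were lower in 7 of 45 (15.6%, near the 14.6% of all genes) and higher in 3, with the secretory Rab27a at 640.3 and 2066 and Rab44 at 5426 and 1979. Of 19 serpins 9 were higher and 4 lower. Besides those of coagulation, Serpinb8 went from 140.2 to 1532, 10.9-fold higher (9.28 to 12.95), and Serpinb1a, an inhibitor of neutrophil proteases, from 3383 to 765, 4.42-fold lower (4.07 to 4.81).

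A few genes were at 3 reads or fewer in one library and at 100 or more normalized counts in the other. Besides Hamp and the Y-linked genes, Gria3, a glutamate receptor subunit, had 1 read at 0 h and 87 at 4 h, 54.4-fold higher (20.3 to 4642). On the other side were 6 genes, among them Btnl6, a butyrophilin-like gene, with 272 reads at 0 h and 2 at 4 h, Pzp, an alpha-macroglobulin protease inhibitor, with 160 reads at 0 h and 1 at 4 h, and Bok, a BCL2 family member of the endoplasmic reticulum, with 163 reads at 0 h and 1 at 4 h. A count of 0 at these depths would still allow 3 reads, 2.60 normalized counts at 0 h and 3.47 at 4 h.

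Some genes that moved in the same direction lay side by side. Along the chromosomes there were 23 runs of at least 5 consecutive genes of the table. In 18 runs all genes were at least 2-fold higher, and in 5 runs all were at least 2-fold lower. How many such runs would arise without any link between neighbours was not tested. The runs held 141 genes, while 1801 were higher and 1833 lower in the whole table. The longest, with 10 genes over 451 kb of chromosome 1 (173591956 to 174042936, mm10), ran from Pydc4 to Olfr433 and held PYHIN genes, whose proteins bind DNA or assemble on it. Folds in the run ranged from 5.01 to 39.9, the widest being Pyhin1 at 395 normalized counts at 0 h and 15828 at 4 h. A run of 9 genes on chromosome 6 (128848043 to 129275369) held C-type lectin and natural killer receptor genes up to the activation antigen Cd69, with Klrb1f the widest at 7.79 and 230.0. Olfr433 and Olfr56, olfactory receptor genes, had low levels (5.19 and 30.05, and 3.46 and 109.8) inside runs of interferon-inducible genes, and reads from an overlapping or neighbouring gene cannot be told apart from their own without the authors' counting rules. A run of 7 genes on chromosome 13 (67254917 to 67451624) held only zinc finger genes of low level, from Zfp458 (10.4 and 65.9) to Zfp874a (111 and 260.0).

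The 5 runs of lower genes held 5 genes each. On chromosome 11 (50131359 to 50238532) the 5 genes from Tbc1d9b (5155 and 2458) to Ltc4s, which included Sqstm1, the autophagy receptor p62 (20976 and 9345), were 2.10-fold to 13.1-fold lower. On chromosome 3 a run ended at the T cell antigen gene Cd2, which is on the alveolar macrophage marker list here, and held the inhibitory immunoglobulin gene Cd101 (929 and 76.3). On chromosome 2 (131170260 to 131248024) the 5 genes from Spef1 (565 and 168) to Mavs (2585 and 757), the adaptor of cytosolic RNA sensing, included the cell cycle phosphatase Cdc25b (1394 and 169.9). On chromosome 6 (4903319 to 5496278) the run ended with Pdk4 (312 and 54.3), a brake on pyruvate oxidation.

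**Figure D4:**
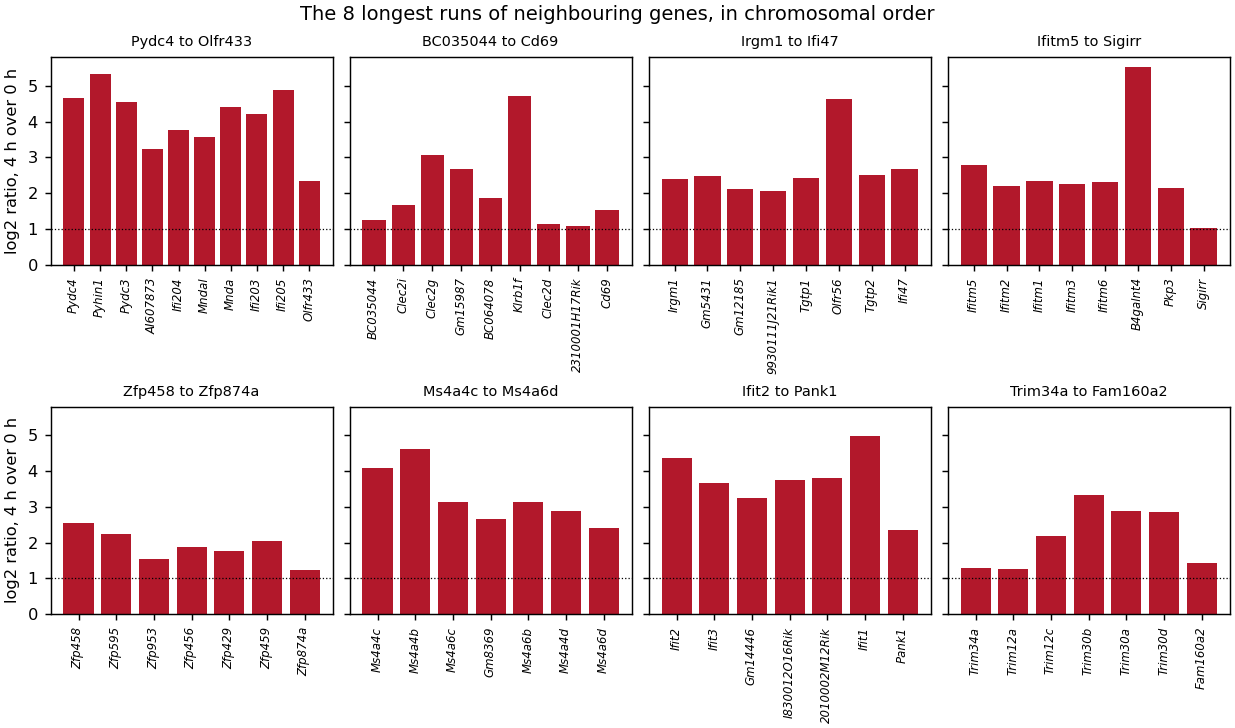
The 8 longest runs of neighbouring genes, each panel in chromosomal order, with bars for the log2 ratio of 4 h over 0 h and a dotted line at 2-fold. All 8 runs are of higher genes, and within a run the bars differ widely, from 2.33 for Olfr433 to 5.32 for Pyhin1 in the first panel.

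Promoter sequence was read for 9829 of the 12512 genes, matched by symbol or synonym, from RefSeq windows (GRCm38.p6) of 250 bases before and 50 after the first listed start, and motifs were searched on both strands. The letters GAAANNGAAA, like the interferon-stimulated response element, were in 12.4% of promoters of genes at least 8-fold higher (21 of 170), in 2.29% of those at least 8-fold lower (4 of 175) and in 3.24% of all. They were in 23.9% of 117 promoters of genes in the runs. Those genes were chosen as past 2-fold, and some are neighbouring copies of 1 family, so their promoters are not independent. TGANTCA, bound by AP-1, was in 20.6%, 6.29% and 5.20%, and TTGCNNAA, like the C/EBP element, in 18.2%, 9.71% and 8.46%. GGGANNNNCC, like the NF-kappaB element, was in similar shares of the 3 sets (27.6%, 24.0% and 26.2%). Among 59 promoters of lysosomal genes TCACGTGA, like the CLEAR element and containing the E-box CACGTG, was in 10.2% (6 promoters) against 1.99% of all. The AP-1 letters were in 11.9% of these 59 (7 promoters) and the C/EBP-like letters in 15.25% (9 promoters), also above their shares of all. Among 63 promoters of cell cycle and replication genes the CCAAT box, CCAAT, was in 66.7% against 39.0%. TTTGAA, the cell cycle homology region, was in 30.2% of them against 12.1%. The AP-1 letters were in 0 of these 63 promoters and the C/EBP-like letters in 3 (4.76%). In genes at least 8-fold lower the CLEAR-like letters were in 0.571% (1 of 175), CCAAT in 37.1% and TTTGAA in 13.7%. In genes at least 8-fold higher the shares were 1.18%, 35.3% and 17.1%. The CLEAR-like, CCAAT and TTTGAA letters thus go with the gene lists, and a link to the difference at 4 h was not tested. A match is only a run of letters in this window and says nothing of binding.

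**Figure D5:**
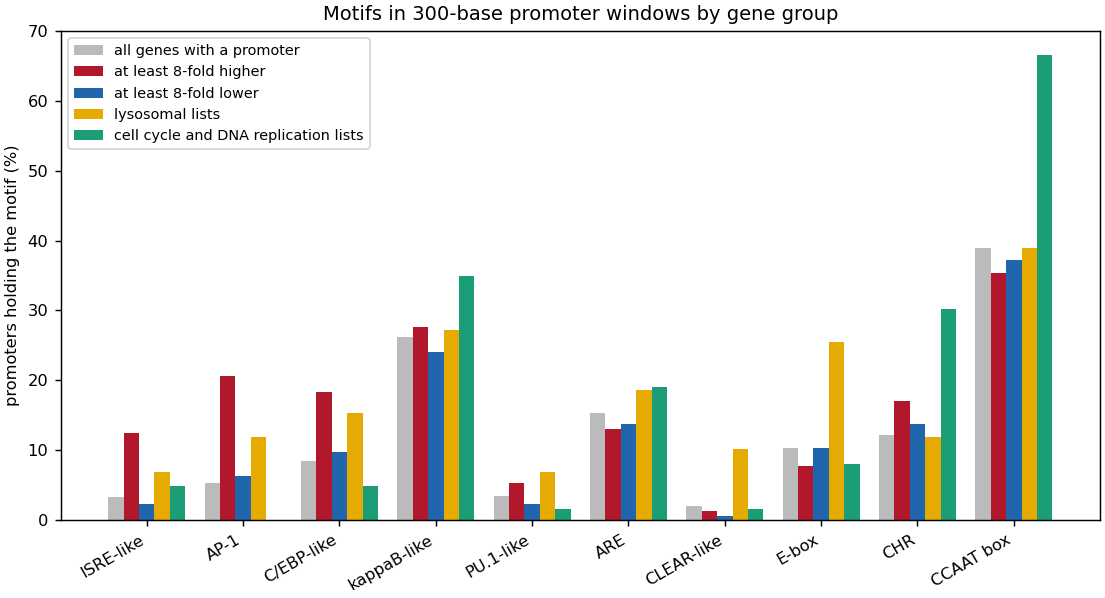
Share of 300-base promoter windows that hold each motif on either strand, in percent, for all 9829 genes with a promoter, genes at least 8-fold higher or lower, and the lysosomal and cell division lists. AP-1 reaches 20.6% in the genes at least 8-fold higher against 5.20% of all. The CCAAT box is in 66.7% of the cell division lists and in 37.1% of the genes at least 8-fold lower, against 39.0% of all.

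The windows of 150 bases just upstream of the start of 5 PYHIN genes of the longest run are shown because they share a stretch, with the response element letters in capitals. RefSeq lists Pydc4 as Ifi213, Pydc3 as Ifi208 and Mnda as Ifi211. They lie at chr1:173599273-173599422 (minus strand), chr1:173673515-173673664 (plus), chr1:173880188-173880337 (minus), chr1:173913047-173913196 (minus) and chr1:174031756-174031905 (minus).
Pydc4: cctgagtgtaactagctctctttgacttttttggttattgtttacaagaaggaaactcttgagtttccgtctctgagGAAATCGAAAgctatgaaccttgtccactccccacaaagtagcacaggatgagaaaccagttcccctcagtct
Pydc3: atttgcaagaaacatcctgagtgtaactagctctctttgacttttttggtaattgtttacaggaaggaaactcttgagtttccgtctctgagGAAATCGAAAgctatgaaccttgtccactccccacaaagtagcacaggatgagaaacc
Mndal: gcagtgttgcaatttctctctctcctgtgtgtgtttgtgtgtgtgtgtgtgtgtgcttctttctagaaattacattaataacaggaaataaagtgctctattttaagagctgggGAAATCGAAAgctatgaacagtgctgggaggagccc
Mnda: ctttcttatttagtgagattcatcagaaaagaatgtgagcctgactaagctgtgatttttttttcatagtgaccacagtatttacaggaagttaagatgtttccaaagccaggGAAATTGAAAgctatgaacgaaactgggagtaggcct
Ifi205: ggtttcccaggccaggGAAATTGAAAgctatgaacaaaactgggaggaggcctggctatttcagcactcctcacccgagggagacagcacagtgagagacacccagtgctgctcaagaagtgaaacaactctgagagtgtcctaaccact
All 5 hold GAAATNGAAAGCTATGAAC, a 19-letter stretch taken from these same windows after the sequences were seen. Of the 9829 promoters only these 5 hold it. Their genes come from a run chosen as at least 2-fold higher, so their direction was fixed in advance. Among all 27025 RefSeq promoters 6 hold it, the additional holder being Ifi206. The 5 genes stood at 47.6 and 1235 (Pydc4), 25.1 and 607 (Pydc3), 919 and 10812 (Mndal), 242 and 5174 (Mnda) and 215 and 6381 (Ifi205) normalized counts. They are neighbouring copies of 1 family, so their sequences and reads are not independent.

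For comparison, Ifit1, the antiviral gene of the run on chromosome 19, holds the response element letters at 2 places in its window at chr19:34640739-34640888 (plus strand).
Ifit1: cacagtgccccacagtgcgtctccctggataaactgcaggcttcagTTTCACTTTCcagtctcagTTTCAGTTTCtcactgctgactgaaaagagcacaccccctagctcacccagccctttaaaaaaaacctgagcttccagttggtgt
In the windows of Mmp13 (chr9:7272364-7272513, plus), Hamp (chr7:30944030-30944179, minus), F3 (chr3:121723387-121723536, plus) and Slfn4 (chr11:83175036-83175185, plus), all at least 8-fold higher, capitals mark AP-1 letters.
Mmp13: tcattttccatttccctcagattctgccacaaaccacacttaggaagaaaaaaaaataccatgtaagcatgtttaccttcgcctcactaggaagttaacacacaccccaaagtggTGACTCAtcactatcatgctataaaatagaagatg
Hamp: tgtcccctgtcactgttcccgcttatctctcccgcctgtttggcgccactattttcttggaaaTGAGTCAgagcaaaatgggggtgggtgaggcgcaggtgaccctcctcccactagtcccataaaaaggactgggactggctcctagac
F3: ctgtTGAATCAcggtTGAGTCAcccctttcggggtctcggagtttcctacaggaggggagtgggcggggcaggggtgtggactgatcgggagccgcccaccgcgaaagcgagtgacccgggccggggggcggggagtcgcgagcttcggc
Slfn4: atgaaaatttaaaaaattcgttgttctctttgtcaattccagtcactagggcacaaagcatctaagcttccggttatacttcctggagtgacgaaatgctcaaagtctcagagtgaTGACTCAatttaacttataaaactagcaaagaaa
In Steap4 (chr5:7960322-7960471, plus), Ptgs2 (chr1:150099881-150100030, plus) and Inhba (chr13:16011701-16011850, plus) capitals mark C/EBP-like letters.
Steap4: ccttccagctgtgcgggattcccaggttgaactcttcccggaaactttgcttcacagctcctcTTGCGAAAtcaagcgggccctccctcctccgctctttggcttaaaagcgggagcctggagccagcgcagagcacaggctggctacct
Ptgs2: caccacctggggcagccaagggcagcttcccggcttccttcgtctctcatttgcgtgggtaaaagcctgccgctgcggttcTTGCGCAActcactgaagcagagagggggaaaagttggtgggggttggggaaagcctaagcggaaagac
Inhba: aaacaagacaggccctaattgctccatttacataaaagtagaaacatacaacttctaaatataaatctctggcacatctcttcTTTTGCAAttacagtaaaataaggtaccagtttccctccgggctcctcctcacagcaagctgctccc
Of the genes that were lower, Ctsd (chr7:142387828-142387977, minus) holds the CLEAR-like letters, and Cdk1 (chr10:69352913-69353062, minus) and Ccnb2 (chr9:70421555-70421704, minus) hold the CCAAT box, Cdk1 together with the cell cycle homology region, all in capitals.
Ctsd: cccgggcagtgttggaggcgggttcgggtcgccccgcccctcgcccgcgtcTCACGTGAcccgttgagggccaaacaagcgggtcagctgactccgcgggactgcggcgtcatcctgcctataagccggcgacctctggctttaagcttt
Cdk1: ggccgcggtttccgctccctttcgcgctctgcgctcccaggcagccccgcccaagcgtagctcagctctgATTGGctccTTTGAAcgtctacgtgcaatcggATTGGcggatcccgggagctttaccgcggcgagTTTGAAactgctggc
Ccnb2: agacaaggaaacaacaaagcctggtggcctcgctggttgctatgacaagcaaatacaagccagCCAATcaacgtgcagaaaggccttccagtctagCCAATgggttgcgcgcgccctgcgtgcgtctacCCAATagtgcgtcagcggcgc
These 16 windows were chosen for wide ratios and a match, so they illustrate the letters and add nothing to the shares above.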

How the data were processed

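Gene values are deposited signals, read counts that the authors divided by a size factor per library, with DESeq2 and build mm10 named in the submitters' processing notes. The sources used here do not name the aligner, the counter, its strand setting or the annotation. The deposited log2 fold change is closer to 0 than the plain log2 ratio and served only as an alternative. Whole reads were recovered from the steps between the authors' values (all within 0.01 reads). The lowest mean of the 2 libraries was 10.1 normalized counts, so genes below about 10 were left out before deposit. The 24 h tables were not used, and some genes are not reported here.

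Ratios used a pseudocount of 1 and intervals the exact Clopper-Pearson method at 95%, with Python 3.11.15, numpy 2.4.6, pandas 2.3.3, scipy 1.17.1 and matplotlib 3.10.9. The calculation was tested on simulated data. A count past 2-fold describes 1 library per time.

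Gene groups came from 63 lists and 35 families. Of 1604 genes in the lists 1455 matched by symbol and 17 by an alias, and 132 had no row. The members and lists were chosen with earlier results of these data known. The rule for names took, among genes whose mean was 1579 normalized counts or more, the 15 highest and 15 lowest ratios. It added the 10 largest gains and 10 largest losses, the 3 widest members past 2-fold in each direction of each group (or its most abundant member), genes at 3 reads or fewer against 100 normalized counts, sorting and sex-linked genes, and the first, last and widest gene of each run. Actb, Alox5ap, Car4, Cd14, Cd36, Cd101, Cebpb, Csf1r, Emr1, F5, Fth1, Marco, Mnda, Mndal, Ptgs1, Pydc3, Sfpi1, Siglec1, Slc6a4, Sqstm1, Tbxas1, Tet2, Timp1 and Tlr4 were named after their values were seen.

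Alternatives were pseudocounts of 0.5 and 10, a mean of at least 100, 3 other scalings, calls that need the whole interval past 2-fold, and the deposited log2 values.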

Additional observations from a re-analysis of the deposited data

How the results depend on the processing

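The counts of genes past 2-fold (1801 higher and 1833 lower) moved by more than 1.5 times under 3 of the alternatives. With the authors' deposited log2 fold change, which is closer to 0 by construction, 1109 genes were higher and 1128 lower. Among genes whose mean was 100 normalized counts or more, 1188 were lower, and 1186 were lower where the whole counting interval had to lie past 2-fold, with fewer genes able to pass in both cases. Equal read totals gave 1533 higher and 2136 lower, centring on the most abundant genes 1466 and 2222, and centring on ribosomal proteins 1893 and 1753. Of 482 named genes 15 fell below 2-fold with equal totals, 18 with that centring, 4 with the ribosomal centring and 21 with a pseudocount of 10. Group medians near 0, such as those of adhesion genes, glycolysis, actin genes and solute carriers, changed sign between scalings, so no direction is given for them. Keeping only genes whose mean was 100 normalized counts or more turned some larger medians as well, that of histone genes from -0.63 to 0.32, of phosphodiesterases from 0.32 to -0.34 and of dual-specificity phosphatases from -0.22 to 0.10.

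No paired analysis was possible because each time has 1 library. For the same reason no library was left out, and time, sex and cell mixture cannot be told apart. Depth limits the genes at a few reads, whose counting intervals are wide, and an absent row was not read as absence of expression.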
